A study of Schizosaccharomyces pombe with 14 samples.

Results

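The 9 genes described here belong to the core environmental stress response of the fission yeast Schizosaccharomyces pombe, the set of genes that most stresses induce. The 9 are ctt1 (SPCC757.07c), gpx1 (SPBC32F12.03c), obr1 (SPAC3C7.14c), gpd1 (SPBC215.05), tps1 (SPAC328.03), ntp1 (SPBC660.07), atf1 (SPBC29B5.01), pyp2 (SPAC19D5.01) and SPAC4H3.08, and they were taken by name from the 7049 genes of the count table. The list was drawn up with results of these libraries in view, and the values that guided it are not recorded. The levels and differences of the 9 genes are therefore given as a description, and no p-value is printed for any of them. All 9 passed the filter on low counts in each fit.

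The study concerns Pac1, the nuclear RNase III of fission yeast, an enzyme that cuts double-stranded stem-loops in RNA, and it sequenced ribosomal RNA-depleted RNA in 14 libraries of 3 experiments. In the anchor-away experiment, 2 Pac1-AA libraries (strain FBY2300) were compared with 2 control (CTL) libraries (strain FBY2066), all from cells kept in rapamycin at 2.5 µg/ml for 2 h. Both strains are h- and carry ade6-M210, ura4-D18 and leu1-32, along with torSE::KanMX6, fkh1::URA+ and the anchor leu1-32::(nmt1-rpl13-2FKBP12-leu1+). Pac1-AA alone has Pac1-FRB-GFP::natMX6, so that rapamycin takes its Pac1 out of the nucleus. In the pac1-ts experiment, 2 clones with the temperature-sensitive allele pac1-G1024A (FBY2604 and FBY2605, called #1 and #2) were compared with a wild type (WT, FBY13), each after 2 h at 37°C and at 30°C. These 3 strains share h+, his3-D1, ura4-D18, leu1-32 and ade6M210, and WT has 1 library at each temperature. The study describes a mild growth defect of this pac1 allele at 30°C and no growth at 37°C. What is called the heat effect in the clones below is thus heat together with any change of Pac1 function. These cannot be told apart within the clones. In the exonuclease experiment, strains in which the nmt81 promoter, which thiamine turns down, drives dis3 (FBY721), dhp1 (FBY1792) or both (FBY1818) were compared with a WT (FBY106), all in 60 µM thiamine and with 1 library each. These 4 strains share leu1-32, ura4-D18 and his3-D1. They differ in mating type or ade6 allele too, which the labels give as h+ with ade6-M216 for WT and as h- with ade6-M210 for the dhp1 strain, and do not give for the other strains. All cells grew in Edinburgh minimal medium (EMM).

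In fission yeast, stress activates a mitogen-activated protein kinase (MAPK) cascade that ends in the kinase Sty1. Sty1 phosphorylates the transcription factor Atf1, which binds, often as a heterodimer with Pcr1, to sites of the cAMP response element type and turns on genes for antioxidant enzymes, protective solutes and the phosphatases that switch the kinase off again. Heat, oxidants, high osmolarity and lack of nutrients all feed into this cascade. Ribosome biogenesis genes are known to go down in the same conditions.

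The libraries held 19877576 to 53258725 fragments counted on genes in the anchor-away experiment, 15997568 to 17743083 in the pac1-ts experiment and 6836270 to 9470347 in the exonuclease experiment. Both Pac1-AA libraries were deeper than both CTL libraries. The share of counts on ribosomal RNA genes was 14.7 to 17.6% in the 4 pac1-ts libraries and 11.3 to 11.4% in both WT libraries of that experiment, and its part in the differences was not tested. The RNA of pac1 was read too. Neither displacement of the protein nor a point mutation fixes its level in advance, so it does not check the labels. pac1 had 157 and 154 CPM in Pac1-AA against 97.0 and 94.2 CPM in CTL, where the protein and not the RNA is displaced. It had 124 and 121 CPM in pac1-ts against 248 CPM in WT at 30°C, and 85.8 and 77.2 CPM in pac1-ts against 69.0 CPM in WT at 37°C. CPM are counts scaled to the total on genes of each library times its TMM factor from edgeR. The repression of dis3 and dhp1 did not follow all labels. In the library labelled Pnmt81-dis3, dis3 had 169 CPM against 202 CPM in WT, and dhp1, which is not altered there, had 408 CPM against 180 CPM in WT. In the library labelled Pnmt81-dhp1, dhp1 had 114 CPM, and dis3, whose promoter is unchanged in that strain, also had 114 CPM. In the library labelled Pnmt81-dhp1 Pnmt81-dis3, dis3 had 255 CPM and dhp1 had 382 CPM, both above WT. Since the libraries are made from whole cultures, a higher level in every cell and a higher level in some cells cannot be told apart.

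A site of the cAMP response element type, TGACGT on either strand, was looked for near the start of each gene. The window ran from 250 bases before to 50 bases after the start. The study describes this motif as one that recruits Atf1, Pap1 and a heterodimer of Pap1 with Prr1, so a match does not name the factor. The genes were not chosen by sequence, but they were chosen as stress response genes, the kind that Atf1 turns on. The shares are therefore a description only. The motif was present at 4 of the 9 genes (atf1, ctt1, gpd1 and ntp1), against 302 of 5113 protein-coding genes with such a window (5.91%). Within 1000 bases before the start it was present at 5 of the 9, pyp2 being added, against 780 of the 5113 (15.3%). The windows were read from the RefSeq genome of build ASM294v3 with its own gene starts, whereas the counts use ASM294v2. Between the annotations, 5079 of 5104 protein-coding genes had the same start or the same end coordinate, but only 279 had both. The start of each of the 9 genes differed, from 206580 against 206581 for ntp1 to 5202366 against 5202656 for pyp2 (counts, then RefSeq). Windows and distances here are from the RefSeq starts. The 24 bases around each match in the shorter window are shown, on the strand of the gene from 5′ to 3′, with the motif in capitals (ACGTCA where it is read on the opposite strand). They are shown so that the bases around the motif can be compared.
ctt1, chrIII:58878-58901, minus strand: gtgcaaataTGACGTtggtaattc
gpd1, chrII:4035434-4035457, plus strand: tcaggcatgTGACGTttggtatca
gpd1, chrII:4035483-4035506, plus strand: agtgtttttACGTCAtttggtacg
ntp1, chrII:206503-206526, plus strand: aggtagactACGTCAttgagtaac
atf1, chrII:1546156-1546179, plus strand: gtgatgcaaTGACGTcatctgttt
The site of atf1 reads TGACGTCA, so the motif and its reverse complement overlap there and count as a single place. Its first base lies 52 bases before the start of atf1. The first bases of the others lie 59 bases before the start of ctt1, 123 and 74 bases before that of gpd1 and 69 bases before that of ntp1. A match describes these letters only. SPAC4H3.08, gpx1, tps1 and obr1 had no match in either window, which says nothing of the factors that act on them.

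After 2 h at 37°C, SPAC4H3.08, gpx1, ctt1 and ntp1 were called higher than at 30°C in both pac1-ts and WT, gpd1 and tps1 were called higher in pac1-ts, and obr1 was called lower in both. The regulators atf1 and pyp2 were not called. In the pac1-ts clones, 6 of the 9 were called higher at 37°C and 1 was called lower, where all genes tested were called higher in 6.29% of cases and lower in 4.80%. In WT, 4 were called higher and 1 lower, where the shares of all genes were 5.87% and 4.49%. A gene was called when the absolute log2 fold change was above 1 and the Benjamini-Hochberg adjusted p, from the quasi-likelihood test of edgeR, was below 0.01. The WT values come from a single library at each temperature, whose spread is assumed to be that of the clones. Between pac1-ts and WT, 3 of the 9 were called higher at 37°C (2.26% of all genes) and 2 at 30°C (1.62%). Between Pac1-AA and CTL, 1 was called higher (0.616%). No member was called lower in these 3 comparisons, beside 0.595%, 0.788% and 0.221% of all genes. At an unadjusted p below 0.05, edgeR had 0 members lower at 37°C, 1 at 30°C and 1 for Pac1-AA, and DESeq2 called 0 in each. Of the 9, 1 was called lower for the difference of the heat effects (0.282%), and 0 were called higher by edgeR or DESeq2 (0.713%), with 5 higher at an unadjusted p below 0.05. Without regard to size, both pac1-ts libraries lay above WT for 8 of the 9 genes at 37°C (42.8% of all genes, with 42.6% below) and for 5 at 30°C (41.7%), with 2 below (44.4%). Both Pac1-AA libraries lay above both CTL libraries for 5 (31.7%) and below for 2 (30.8%), and the 37°C clones lay above the 30°C clones for 7 (39.4%) and below for 1 (39.0%). Nothing is read from these counts, since the genes were chosen with such results known. The median log2 fold change of the 9 genes for 37°C against 30°C was 1.30 in pac1-ts and 0.82 in WT, beside 0.02 and -0.02 over all genes tested.

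**Figure D1:**
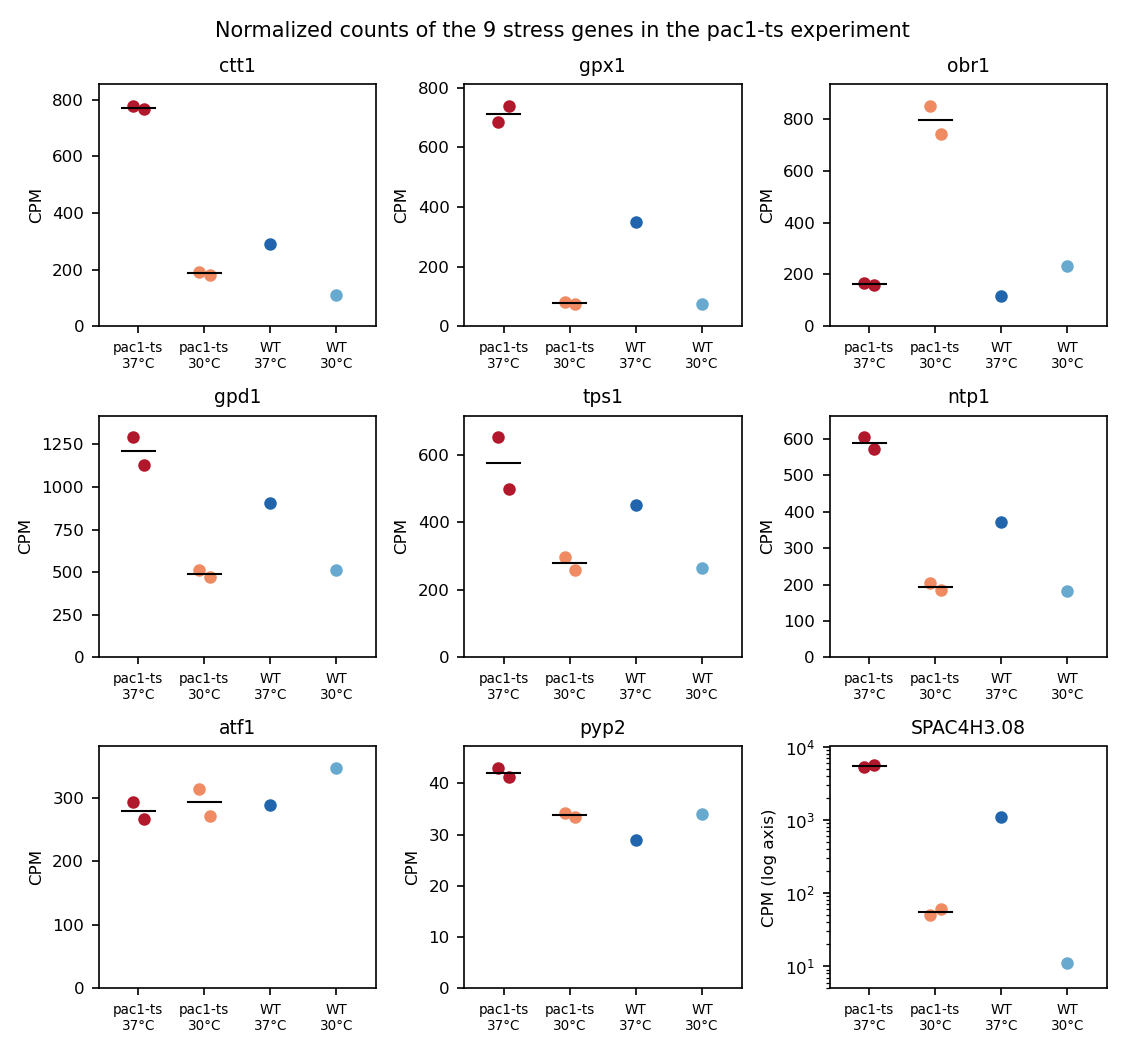
Normalized counts (CPM, y axis) of the 9 genes in the 6 libraries of the pac1-ts experiment, with 1 panel a gene, 1 point a library and a line at the mean of the 2 clones. The y axis starts at 0 except for SPAC4H3.08, where it is logarithmic and spans 11.1 CPM in WT at 30°C to 5633 CPM in pac1-ts #2 at 37°C.

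Scaling matters for the heat comparisons. With library totals in place of TMM factors, the median log2 fold change of all genes for 37°C against 30°C was 0.30 in pac1-ts and 0.40 in WT, and the calls over all genes were 748 higher and 147 lower in pac1-ts and 863 higher and 91 lower in WT, against 423 and 323, and 395 and 302, with TMM. The same change of scaling gave a median of 0.11 for Pac1-AA against CTL, with 69 higher and 9 lower against 39 and 14, and of -0.12 for the difference of the heat effects, with 27 higher and 20 lower against 48 and 19. For pac1-ts against WT at 30°C, library totals without ribosomal RNA genes gave a median of 0.11, with 120 higher and 35 lower against 109 and 53. Each change given here is relative to the bulk of genes, as TMM sets it. With the clone as a replicate block, which pairs the temperatures of a strain, the calls over all genes were 186 higher and 60 lower for pac1-ts against WT at 30°C, and 79 higher and 41 lower for the difference of the heat effects. No call of the 9 genes changed with that block.

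SPAC4H3.08 had the widest range of levels of the 9. It is annotated in RefSeq as a 3-hydroxyacyl-CoA dehydrogenase, a single-exon gene on chromosome I from 3841498 to 3843136 on the plus strand of ASM294v2, and it has no overlapping gene in the annotation used for counting. At 37°C it had 5268 and 5633 CPM in pac1-ts #1 and #2, and 1088 CPM in WT. At 30°C it had 49.7 and 60.2 CPM in pac1-ts, and 11.1 CPM in WT. The pac1-ts libraries lay above the WT library at either temperature, and every 37°C library lay above every 30°C library. The log2 fold change for 37°C against 30°C was 6.63 (standard error, SE, 0.14) in pac1-ts and 6.61 (SE 0.21) in WT, that is 99.1-fold and 97.9-fold, and it was the highest of the 6728 genes tested in both. The difference between the heat effects was 0.02 (SE 0.23), and its sign changed with the scaling. The log2 fold change for pac1-ts against WT was 2.32 (SE 0.15) at 37°C and 2.31 (SE 0.18) at 30°C.

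The level of SPAC4H3.08 per length moved across most of the range of the transcriptome. FPKM, which divides the count by the length of the gene and by the total on genes, was 5.88 in WT at 30°C, which lay above 7.56% of protein-coding genes. It was 770 FPKM in WT at 37°C, above 98.4% of them, and 3537 and 3793 FPKM in pac1-ts at 37°C, above 99.8 and 99.9%. Of the summed counts of the 9 genes, SPAC4H3.08 held 53.9 and 57.5% in pac1-ts at 37°C and 28.0% in WT at 37°C, but at most 2.64% in pac1-ts and 0.627% in WT at 30°C. The summed level of the 9 genes was 9778 and 9804 CPM in pac1-ts at 37°C, 3889 CPM in WT at 37°C, 2531 and 2278 CPM in pac1-ts at 30°C, and 1772 CPM in WT at 30°C.

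**Figure D2:**
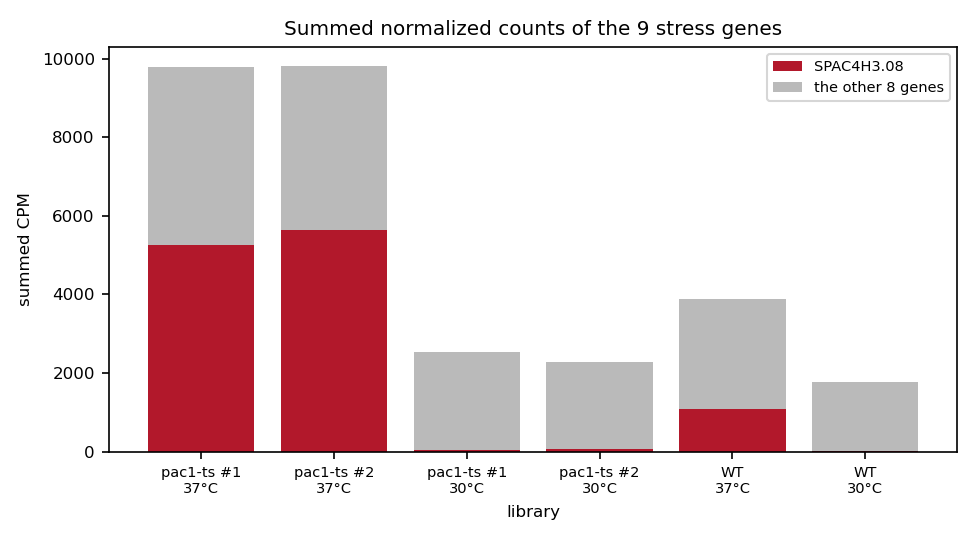
Summed normalized counts (CPM, y axis) of the 9 genes in each library of the pac1-ts experiment (x axis), with SPAC4H3.08 in red and the other 8 genes in grey. SPAC4H3.08 takes 53.9 and 57.5% of the counts in the pac1-ts clones at 37°C and 28.0% in WT at 37°C.

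SPAC4H3.08 was also the member called in the anchor-away experiment. It had 31.8 and 33.5 CPM in Pac1-AA against 8.59 and 8.74 CPM in CTL, and the groups did not overlap. These levels rest on 1653 and 1856 counts in Pac1-AA, and on 165 and 281 counts in CTL. The log2 fold change was 1.91 (SE 0.067, 3.76-fold), the 20th highest of 6328 genes. Its level per length stayed modest in this experiment, with 20.1 and 21.3 FPKM in Pac1-AA against 5.06 and 5.13 FPKM in CTL.

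Among the antioxidant genes, ctt1 encodes the catalase, which breaks down hydrogen peroxide, and lies on chromosome III from 56654 to 58865 on the minus strand. It had 776 and 765 CPM in pac1-ts against 290 CPM in WT at 37°C, and 192 and 181 CPM in pac1-ts against 112 CPM in WT at 30°C. The pac1-ts libraries lay above WT at both temperatures. For 37°C against 30°C the log2 fold change of ctt1 was 2.05 (SE 0.077) in pac1-ts and 1.38 (SE 0.11) in WT, and for pac1-ts against WT it was 1.41 (SE 0.097) at 37°C and 0.74 (SE 0.096) at 30°C. The last of these was not called, nor was the difference of the heat effects (0.67, SE 0.13). After rapamycin, ctt1 had 175 and 173 CPM in Pac1-AA against 114 and 137 CPM in CTL, a log2 fold change of 0.46 (SE 0.066), with no overlap of the groups. Without CTL #1 this value was 0.34, and without CTL #2 it was 0.62. ctt1 therefore lay higher in the pac1 mutant libraries in all 3 comparisons with a control strain, but passed the log2 threshold in 1 of them.

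The gene gpx1 encodes glutathione peroxidase, which removes peroxides at the expense of glutathione, and lies on chromosome II from 2788863 to 2789614 on the minus strand. It had 685 and 737 CPM in pac1-ts against 351 CPM in WT at 37°C, and 81.7 and 75.8 CPM in pac1-ts against 75.3 CPM in WT at 30°C. Its strains were thus close to each other at 30°C (log2 fold change 0.07, SE 0.10) and apart at 37°C (1.02, SE 0.10). The heat effect was 3.18 (SE 0.086, 9.04-fold) in pac1-ts and 2.22 (SE 0.12, 4.66-fold) in WT, and their difference of 0.95 (SE 0.14) was below the log2 threshold. It passed the threshold without pac1-ts #1 at 30°C, with 1.01. The call of gpx1 for pac1-ts against WT at 37°C sat at the threshold. It was lost with DESeq2 or with RLE factors (0.97 in either), with library totals (0.95) and without pac1-ts #2 at 37°C (0.94). After rapamycin, gpx1 had 178 and 179 CPM in Pac1-AA against 158 and 177 CPM in CTL, a log2 fold change of 0.09 (SE 0.046).

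The last 25 bases of gpx1 overlap the opposite-strand gene gem7 (SPBC32F12.16), which was counted by strand. In contrast to gpx1, gem7 had 13.5 and 11.7 CPM in pac1-ts against 30.8 CPM in WT at 37°C, and 31.4 and 31.7 CPM in pac1-ts against 32.2 CPM in WT at 30°C. It fell by 1.33 on the log2 scale for 37°C against 30°C in pac1-ts (SE 0.11, Benjamini-Hochberg adjusted p = 1.97e-06, quasi-likelihood test of edgeR). In WT, with 1 library at each temperature, the log2 fold change of gem7 was -0.06 (SE 0.15). For pac1-ts against WT it was -1.29 (SE 0.13) at 37°C and -0.03 (SE 0.13) at 30°C. The difference of the heat effects is not given for gem7. A relation between the overlapping genes was not tested.

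The gene obr1 went the other way. It encodes a quinone reductase of the flavodoxin type, annotated as NAD(P)H dehydrogenase (quinone), and it is known as a target of Pap1, the AP-1-like factor of the oxidative stress response. It lies on chromosome I from 2094110 to 2095066 on the minus strand. At 37°C it had 166 and 159 CPM in pac1-ts and 116 CPM in WT, and at 30°C it had 847 and 740 CPM in pac1-ts and 234 CPM in WT. Every 37°C library lay below every 30°C library, and pac1-ts lay above WT at both temperatures. The log2 fold change of obr1 for 37°C against 30°C was -2.29 (SE 0.089, 4.88-fold lower at 37°C) in pac1-ts, the 17th lowest of 6728 genes, and -1.01 (SE 0.12) in WT. For pac1-ts against WT it was 1.76 (SE 0.11, 3.39-fold) at 30°C, the 40th highest, and 0.48 (SE 0.11) at 37°C. The difference of the heat effects was -1.28 (SE 0.15), which was called, and ranged from -1.41 to -1.17 over the alternatives. The call in WT sat at the threshold and was lost in 7 alternatives, among them DESeq2 (-0.99), library totals (-0.59) and the fits that leave out pac1-ts #1 or #2 at 37°C (-0.97 each).

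In the anchor-away experiment obr1 also went the other way from the pac1-ts clones. It had 531 and 514 CPM in Pac1-AA against 658 and 686 CPM in CTL, with no overlap, and the log2 fold change was -0.36 (SE 0.037). The direction was the same under all alternatives run for that comparison, between -0.39 and -0.26. The whole of obr1 lies under the opposite-strand lncRNA SPNCRNA.793 (957 shared bases), and 68 bases are shared with SPNCRNA.794 on its own strand, where fragments on both were not counted. SPNCRNA.793 had 54.3 and 63.7 CPM in pac1-ts at 37°C against 26.7 and 30.1 CPM at 30°C, a log2 fold change of 1.05 (SE 0.10, adjusted p = 4.92e-06, quasi-likelihood test of edgeR). In WT it had 56.5 CPM at 37°C against 24.6 CPM at 30°C (1.20, SE 0.14, adjusted p = 7.35e-05, same test). Between Pac1-AA and CTL its log2 fold change was -0.06 (SE 0.087, adjusted p = 0.661), with 10.1 and 11.4 CPM in Pac1-AA against 11.1 and 11.3 CPM in CTL. For pac1-ts against WT at 30°C, where obr1 was higher, SPNCRNA.793 had 0.21 (SE 0.13, adjusted p = 0.277).

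**Figure D3:**
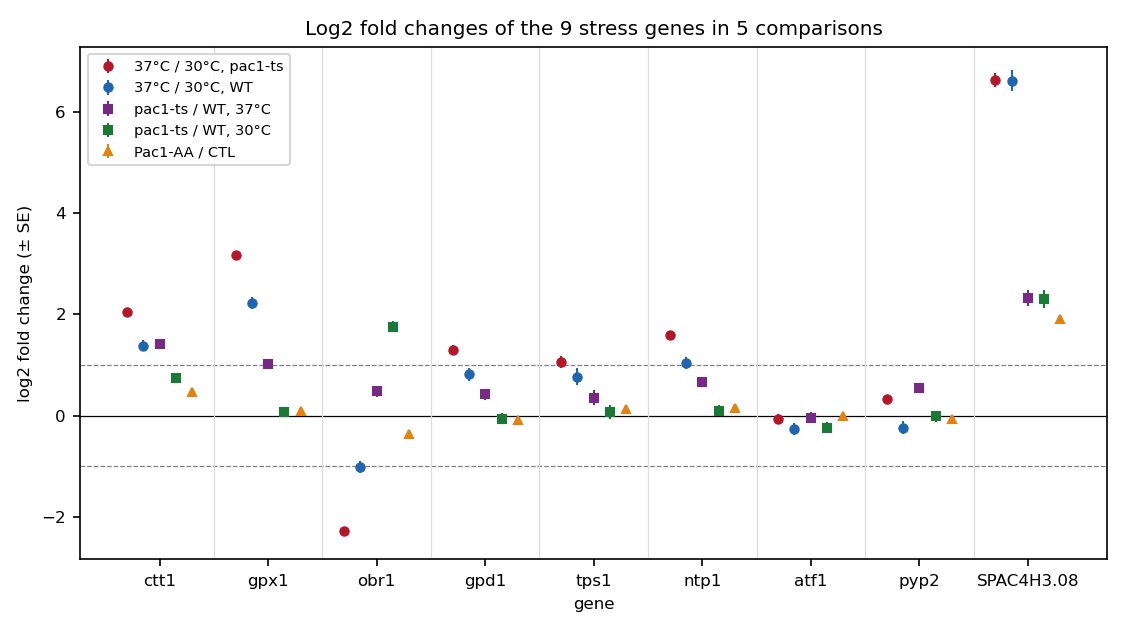
Log2 fold changes with their standard errors (y axis) of the 9 genes (x axis) in 5 comparisons, with dashed lines at the call threshold of 1 and -1. SPAC4H3.08 stands at 6.63 and 6.61 for the heat shift, and obr1 is at -2.29 and -1.01 for heat but at 1.76 for pac1-ts against WT at 30°C.

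The solute genes were higher at 37°C than at 30°C in the pac1-ts clones and also in WT, which has 1 library at each temperature. The gene gpd1 encodes glycerol-3-phosphate dehydrogenase, which makes the precursor of the osmolyte glycerol, and lies on chromosome II from 4035580 to 4037342 on the plus strand. It had 1290 and 1129 CPM in pac1-ts against 904 CPM in WT at 37°C, and 510 and 472 CPM in pac1-ts against 513 CPM in WT at 30°C. The heat effect on gpd1 was 1.30 (SE 0.092) in pac1-ts, which was called, and 0.82 (SE 0.13) in WT, which was not, and the difference of 0.48 (SE 0.16) was not called either. With library totals the WT value was 1.24, past the threshold. Between the strains the log2 fold change was 0.42 (SE 0.11) at 37°C and -0.06 (SE 0.11) at 30°C.

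Trehalose, a disaccharide that protects proteins and membranes, is made through tps1, the trehalose-phosphate synthase gene, and broken down by the product of ntp1, the neutral trehalase. They lie on chromosome I from 3479098 to 3481305 (tps1) and on chromosome II from 206580 to 209641 (ntp1), both on the plus strand. For tps1, the levels were 652 and 501 CPM in pac1-ts against 452 CPM in WT at 37°C, and 298 and 259 CPM in pac1-ts against 265 CPM in WT at 30°C. The heat effect on tps1 was 1.05 (SE 0.12) in pac1-ts and 0.77 (SE 0.17) in WT. The call in pac1-ts sat at the threshold and was lost without pac1-ts #1 at 37°C (0.82) and without pac1-ts #2 at 30°C (0.95), while the WT value passed it with library totals (1.18).

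For ntp1, the levels were 604 and 572 CPM in pac1-ts against 371 CPM in WT at 37°C, and 205 and 184 CPM in pac1-ts against 181 CPM in WT at 30°C. The heat effect on ntp1 was 1.60 (SE 0.083) in pac1-ts and 1.03 (SE 0.12) in WT, both called, and at 37°C pac1-ts stood 0.66 (SE 0.10) above WT on the log2 scale. Genes for the synthesis and for the breakdown of trehalose were thus both higher at 37°C in the pac1-ts clones and in WT. In the anchor-away experiment the 3 solute genes stayed within 0.15 of 0 on the log2 scale. ntp1 had 245 and 246 CPM in Pac1-AA against 216 and 226 CPM in CTL, tps1 had 293 and 304 against 261 and 280 CPM, and gpd1 had 736 and 749 against 763 and 816 CPM. The log2 value of gpd1, -0.09 (SE 0.040), turned to 0.02 with library totals.

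The regulators atf1 and pyp2 were not called in any comparison of the pac1-ts and anchor-away experiments. The gene atf1 encodes the transcription factor at the end of the cascade and lies on chromosome II from 1546194 to 1549862 on the plus strand, in 2 exons. It had 293 and 267 CPM in pac1-ts against 288 CPM in WT at 37°C, and 314 and 271 CPM in pac1-ts against 346 CPM in WT at 30°C. Its log2 fold change for 37°C against 30°C was -0.07 (SE 0.090) in pac1-ts and -0.26 (SE 0.13) in WT, and both signs turned with library totals. In the anchor-away experiment atf1 had 148 and 154 CPM in Pac1-AA against 150 and 154 CPM in CTL, and the groups overlapped (log2 fold change -0.01, SE 0.033).

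The gene pyp2 encodes a tyrosine phosphatase that dephosphorylates Sty1, and lies on chromosome I from 5202366 to 5205202 on the plus strand. It had 42.9 and 41.3 CPM in pac1-ts against 28.8 CPM in WT at 37°C, and 34.2 and 33.4 CPM in pac1-ts against 34.0 CPM in WT at 30°C. The clones lay above WT at 37°C (log2 fold change 0.55, SE 0.10) and around it at 30°C (-0.01, SE 0.11), and none of the comparisons of pyp2 was called. Its heat effect was 0.32 (SE 0.085) in pac1-ts and -0.24 (SE 0.12) in WT, and the sign in WT turned with library totals. After rapamycin, pyp2 had 13.0 and 13.9 CPM in Pac1-AA against 15.4 and 13.2 CPM in CTL. Per length, pyp2 was the lowest of the 9 genes in each library but WT at 30°C, CTL #1 and WT in thiamine, where SPAC4H3.08 was lower, and the library labelled Pnmt81-dhp1 Pnmt81-dis3, where obr1 was lower.

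**Figure D4:**
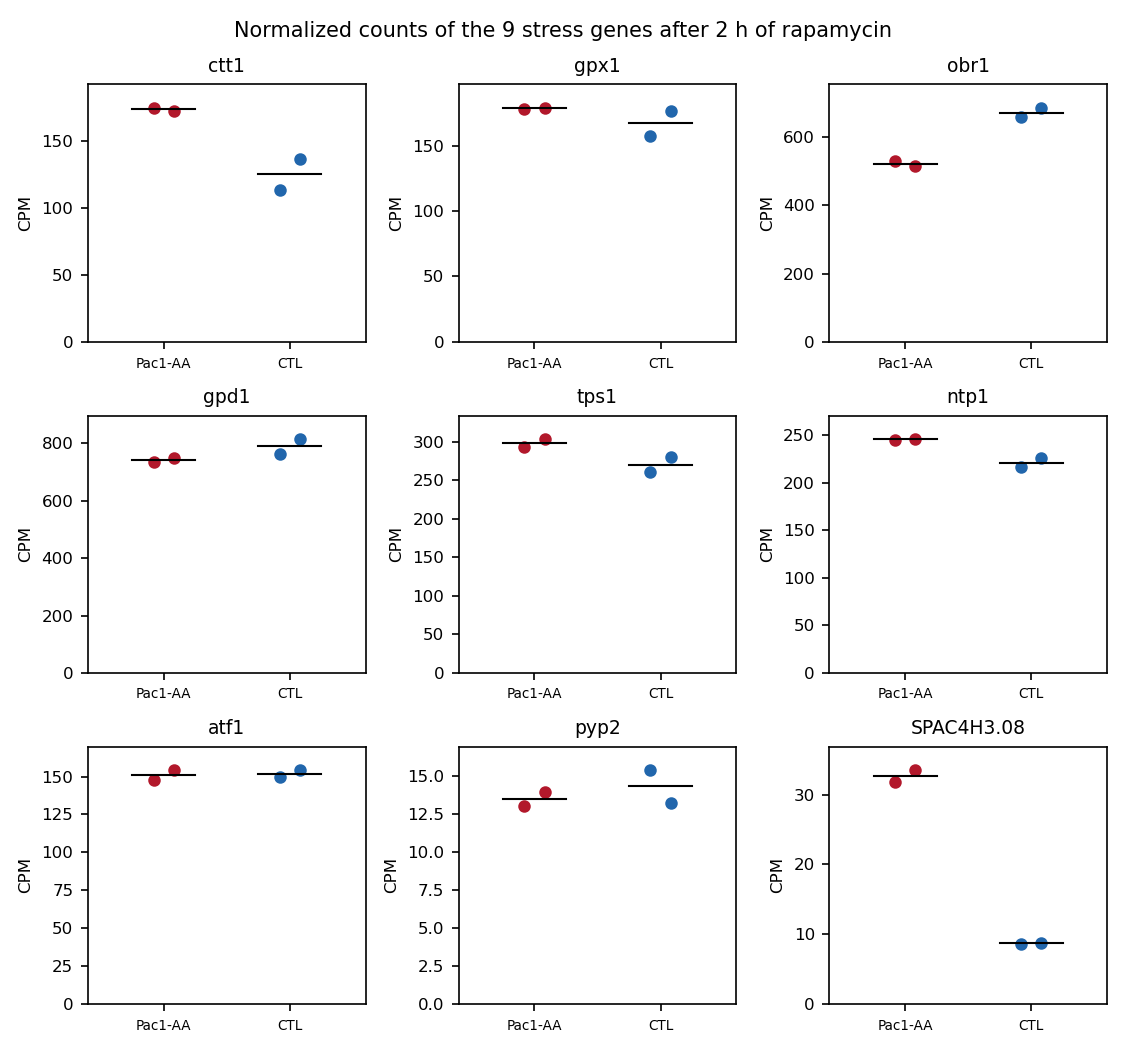
Normalized counts (CPM, y axis from 0) of the 9 genes in 2 Pac1-AA and 2 CTL libraries after 2 h of rapamycin, with 1 panel a gene, 1 point a library and a line at the mean. SPAC4H3.08 had 31.8 and 33.5 CPM in Pac1-AA against 8.59 and 8.74 CPM in CTL, and obr1 is lower in Pac1-AA.

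Of the other members, tps1 shares 63 bases with dbl4 (SPAC328.02) and atf1 shares 61 bases with SPNCRNA.1441 on the same strand, and fragments on both genes of such a pair were not counted. On the opposite strand, ntp1 shares 331 bases with SPNCRNA.1327 and pyp2 shares 48 bases with emc10 (SPAC19D5.02c). The levels of these members are uncertain to that extent. For 37°C against 30°C in pac1-ts, dbl4 had a log2 fold change of 0.85 (SE 0.090) and SPNCRNA.1327 of 0.51 (SE 0.14), and neither was called.

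The order of the 9 genes by level per length differed between conditions. In WT at 30°C it was gpd1 (252 FPKM), obr1 (213), atf1 (107), tps1 (104), gpx1 (86.9), ntp1 (51.4), ctt1 (43.8), pyp2 (10.4) and SPAC4H3.08 (5.88 FPKM). In WT at 37°C SPAC4H3.08 (770 FPKM) came first, followed by gpd1 (594) and gpx1 (541 FPKM). In pac1-ts at 37°C the first were SPAC4H3.08, gpx1 (1003 and 1082 FPKM) and gpd1 (806 and 707 FPKM), with no overlap between the clones of neighbours in that order. obr1 came first in the pac1-ts clones at 30°C (779 and 719 FPKM) and in all 4 anchor-away libraries, with 574 and 558 FPKM in Pac1-AA against 664 and 689 FPKM in CTL. WT has 1 library at each temperature, so its neighbours cannot be told apart by their spread.

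The exonuclease libraries have 1 library a strain, so no test was made, and the intervals cover counting error only. Dis3 is the catalytic 3′-5′ exonuclease of the RNA exosome, and Dhp1 the nuclear 5′-3′ exonuclease. SPAC4H3.08 had 103 CPM in the library labelled Pnmt81-dis3, 14.9 CPM in that labelled Pnmt81-dhp1 and 81.3 CPM in that labelled Pnmt81-dhp1 Pnmt81-dis3, against 8.19 CPM in WT, from 886, 137, 595 and 56 counts. The log2 ratios were 3.64 (95% interval 3.26 to 4.07), 0.86 (0.41 to 1.34) and 3.30 (2.91 to 3.73) in that order of strains. The libraries labelled Pnmt81-dis3 and Pnmt81-dhp1 Pnmt81-dis3 thus stood at 12.5-fold and 9.86-fold the WT level. Their ratios share the 56 counts of WT, so the overlap of their intervals does not compare these libraries with each other.

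For ctt1, the levels were 213 CPM in the library labelled Pnmt81-dis3, 78.6 CPM in that labelled Pnmt81-dhp1 and 171 CPM in that labelled with both (the double), against 93.0 CPM in WT, with log2 ratios of 1.19, -0.24 and 0.88. The sign of the ratio of ctt1 in the library labelled Pnmt81-dhp1 turned with library totals. tps1 had 393, 844 and 651 CPM in the same order against 300 CPM in WT, and log2 ratios of 0.39, 1.49 and 1.12. ntp1 was highest in the library labelled Pnmt81-dhp1, with 645 CPM there, 318 CPM in that labelled Pnmt81-dis3, 247 CPM in the double and 326 CPM in WT. obr1 was below WT in all 3 strains, with 52.1 CPM in the library labelled Pnmt81-dis3, 49.1 CPM in that labelled Pnmt81-dhp1 and 20.2 CPM in the double, against 83.8 CPM in WT. Its log2 ratio in the double was -2.05 (95% interval -2.32 to -1.79).

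The regulators differed from each other here. atf1 had 251 CPM in the library labelled Pnmt81-dis3, 136 CPM in that labelled Pnmt81-dhp1 and 142 CPM in the double, against 128 CPM in WT. pyp2 had 84.7, 23.3 and 62.4 CPM in the same order against 46.3 CPM in WT, log2 ratios of 0.87, -0.99 and 0.43. gpd1 had 150, 236 and 99.7 CPM in the same order against 158 CPM in WT. Its log2 ratio was -0.08 (95% interval -0.19 to 0.04) in the library labelled Pnmt81-dis3, 0.58 (0.48 to 0.69) in that labelled Pnmt81-dhp1 and -0.66 (-0.80 to -0.53) in the double. gpx1 had 119, 174 and 126 CPM against 118 CPM in WT, so that it was above WT beyond counting error in the library labelled Pnmt81-dhp1 only (log2 ratio 0.55, 0.43 to 0.68). Past an absolute log2 ratio of 1, 2 of the 9 genes were higher in the library labelled Pnmt81-dis3 (21.0% of all genes higher and 18.6% lower), 1 was higher in that labelled Pnmt81-dhp1 (12.8% and 10.3%), and 2 were higher and 1 lower in the double (21.5% and 17.8%). Nothing is read from these counts. With library totals, the median log2 ratio of all genes was -0.15 in the library labelled Pnmt81-dis3, 0.34 in that labelled Pnmt81-dhp1 and -0.22 in the double.

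**Figure D5:**
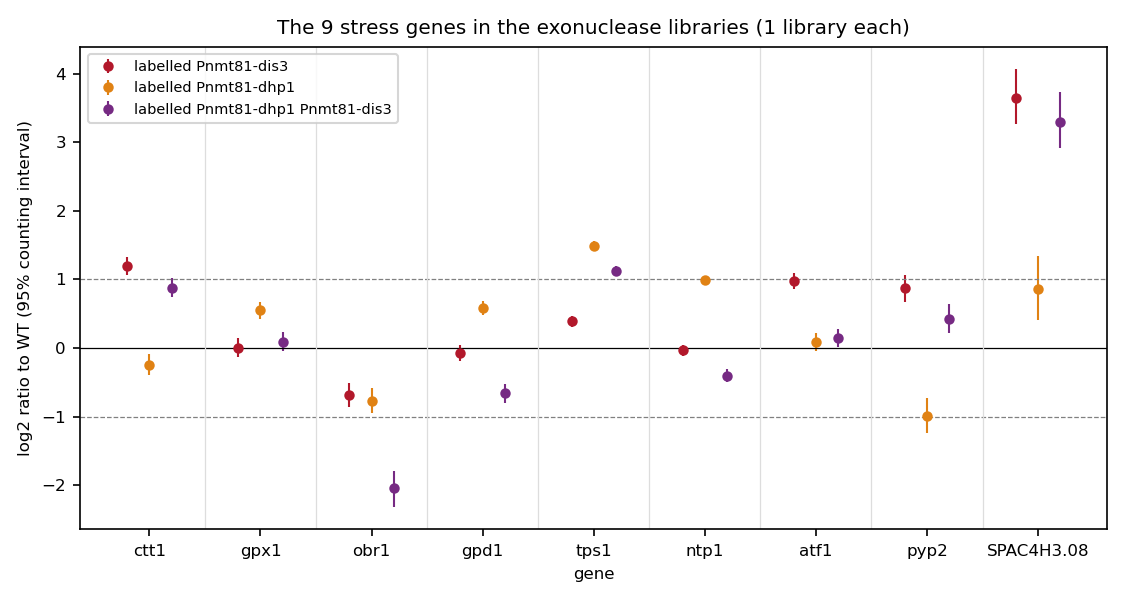
Log2 ratio to WT (y axis) of the 9 genes (x axis) in 3 exonuclease strains in thiamine, with 1 library each. Bars are 95% intervals for counting error only. SPAC4H3.08 is at 3.64 in the library labelled Pnmt81-dis3 and at 3.30 in the double, and obr1 is at -2.05 in the double.

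Other stress genes were taken as 5 lists by symbol, of which 58 genes were tested: the MAPK cascade (15 genes), stress transcription factors (9), antioxidant and detoxification genes (21), genes of trehalose, glycerol and ion balance (6), and small stress proteins and other induced genes (7). Of the 58, 12 were called higher and 3 lower for 37°C against 30°C in pac1-ts, and 10 higher and 2 lower in WT. Over all genes tested, the shares were 6.29% higher and 4.80% lower in pac1-ts, and 5.87% and 4.49% in WT. With library totals the counts of the 58 were 14 higher and 1 lower in pac1-ts, and 15 higher and 0 lower in WT. Without pac1-ts #1 at 30°C, 1 was called lower in pac1-ts. The median log2 fold change of the 58 was 0.02 in pac1-ts and -0.02 in WT, beside 0.02 and -0.02 over all genes. For pac1-ts against WT, 9 were called higher at 37°C (2.26% of all genes) and 7 at 30°C (1.62%). None was called lower by edgeR at either temperature, with 12 and 10 lower at an unadjusted p below 0.05, and DESeq2 called 1 lower at each, as did edgeR without pac1-ts #1 at the temperature compared. For Pac1-AA against CTL, 1 was called higher and 1 lower (0.616% and 0.221% of all genes). The counts rest on the log2 threshold. Without it, 22 of the 58 were called higher and 22 lower for heat in pac1-ts (21.4% and 25.4% of all genes), and 18 higher and 10 lower in WT (12.8% and 18.1%). For pac1-ts against WT, 15 were then called higher and 4 lower at 37°C (5.80% and 6.29% of all genes), and 12 higher and 4 lower at 30°C (3.63% and 6.30%). For Pac1-AA against CTL, 9 were higher and 4 lower (4.55% and 7.46%). The lists, like the 9 genes, were drawn up with results of these data known, so their counts are a description and no p-value is printed for their genes.

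Among the small stress proteins, 6 of 7 genes were called higher at 37°C in pac1-ts (6.29% of all genes) and 6 in WT (5.87%). For pac1-ts against WT, 6 of the 7 were called higher at 37°C (2.26% of all genes) and 3 at 30°C (1.62%). DESeq2 called 5 and 3 of them. Nothing is read from these counts, since the lists were drawn up with results known. The small heat shock protein gene hsp16 had 3843 ± 380 CPM in pac1-ts against 1215 CPM in WT at 37°C, and 166 ± 6.92 CPM in pac1-ts against 31.2 CPM in WT at 30°C (SD, n = 2 clones). Its log2 fold change for pac1-ts against WT was 1.66 (SE 0.13) at 37°C and 2.41 (SE 0.15) at 30°C. The metallothionein gene zym1 had 1329 ± 193 CPM in pac1-ts against 224 CPM in WT at 37°C, and 53.1 ± 3.17 CPM in pac1-ts against 16.3 CPM in WT at 30°C. hsp9, which encodes another heat shock protein, had 5516 ± 770 CPM at 37°C against 462 ± 77.1 CPM at 30°C in pac1-ts, and 2452 against 314 CPM in WT.

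Of the 6 solute genes, 1 was called higher and 1 lower for Pac1-AA against CTL (0.616% and 0.221% of all genes). For pac1-ts against WT, 1 was called higher at 37°C (2.26%) and 1 at 30°C (1.62%). Of the 21 antioxidant genes, 2 were called higher for pac1-ts against WT at each temperature, beside the same shares. DESeq2 called 1 of the 21 higher and 1 lower at 37°C. For 37°C against 30°C, 2 of the 21 were called higher and 2 lower in each strain (6.29% and 4.80% of all genes in pac1-ts, 5.87% and 4.49% in WT). The dihydroxyacetone kinase gene dak2 had 46.8 ± 1.40 CPM in Pac1-AA against 9.21 ± 1.39 CPM in CTL (SD, n = 2 each), a log2 fold change of 2.31 (SE 0.076). At 37°C dak2 had 73.6 ± 0.485 CPM in pac1-ts against 17.5 CPM in WT (2.07, SE 0.099). cta3, a P-type ATPase gene, had 4.12 ± 0.00418 CPM in Pac1-AA against 8.87 ± 0.166 CPM in CTL (-1.11, SE 0.098). The glutathione S-transferase gene gst2 had 129 ± 31.5 CPM in pac1-ts against 25.4 CPM in WT at 30°C. The drug efflux gene bfr1 had 233 ± 22.0 CPM at 37°C against 733 ± 194 CPM at 30°C in pac1-ts.

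The difference of the heat effects between pac1-ts and WT was called for 3 of the 58 genes, 1 higher and 2 lower, beside 0.713% and 0.282% of all genes (0.907% and 0.357% without the log2 threshold). It was higher in pac1-ts for gld1, the glycerol dehydrogenase gene, by 1.20 on the log2 scale (SE 0.18). It was lower in pac1-ts for the peroxiredoxin gene tpx1 (-1.18, SE 0.19) and for the transporter gene caf5 (-1.12, SE 0.18). These counts depend on the fit. Without pac1-ts #1 at 37°C, 0 of the 58 were called higher and 4 lower, without pac1-ts #2 at either temperature or with the clone as a replicate block 4 were called lower, and with genes of a mean count of at least 50, 0 were called.

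Of the ribosome biogenesis genes, 45 of the 49 listed were matched and tested. For 37°C against 30°C, 2 were called lower in pac1-ts (4.80% of all genes) and 3 in WT (4.49%), and the median log2 fold change was -0.33 in pac1-ts and -0.53 in WT, beside 0.02 and -0.02 over all genes. None was called higher by edgeR or by DESeq2, with 0 higher at an unadjusted p below 0.05 in pac1-ts and 0 in WT. gar1, of the H/ACA small nucleolar ribonucleoprotein, had 193 ± 22.6 CPM at 37°C against 452 ± 24.9 CPM at 30°C in pac1-ts, and 245 against 588 CPM in WT. fib1, the fibrillarin gene, had 674 CPM at 37°C against 1846 CPM at 30°C in WT (-1.45, SE 0.12). With library totals, 0 of the 45 were called lower in pac1-ts and 1 in WT. Without the log2 threshold, 26 were called lower in pac1-ts and 28 in WT, where the shares of all genes were 25.4% and 18.1%.

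The genes whose pattern was most like that of the 9 were found from the Pearson correlation, over the 14 libraries, of log2(CPM + 1) with the mean of the 9, each centred within its experiment. Among 6309 other genes the 5 highest were mug147 (r = 0.990), ish1 (0.982), tms1 (0.981), opt3 (0.978) and SPCPB16A4.06c (0.975). The order depended on the scaling. With library totals mug147 stayed first (0.992), opt3 (0.984), iqw1 (0.982) and ish1 (0.979) followed, tms1 came 6th and SPCPB16A4.06c 8th. The libraries of an experiment share their handling, and the difference between 37°C and 30°C dominates the mean of the 9. The 9 genes were averaged without scaling, so SPAC4H3.08, with by far the largest heat effect, weighs most in that mean. These values are therefore a description only. Of the 9 themselves, ctt1 was most like the mean of the other 8 (r = 0.930), followed by gpx1 (0.889), SPAC4H3.08 (0.887), ntp1 (0.775), gpd1 (0.727) and tps1 (0.643). The value was 0.232 for pyp2, -0.06 for atf1 and -0.65 for obr1. These values pool experiments that differed. Within the 6 pac1-ts libraries, the 4 anchor-away libraries and the 4 exonuclease libraries in turn, r was -0.63, 0.03 and 0.89 for atf1, 0.61, -0.62 and 0.25 for pyp2, and 0.95, -0.66 and -0.29 for gpd1. ctt1 and SPAC4H3.08 had r above 0 in each experiment and obr1 below 0 in each, whereas gpx1, tps1 and ntp1 were below 0 among the exonuclease libraries.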

How the data were processed

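The authors deposited 1 table of raw counts of fragments per gene. As the study's methods state, reads were trimmed with trimmomatic, mapped with HISAT2 on ASM294v2 and counted by strand with featureCounts, which by default leaves out a fragment on more than 1 gene. Libraries came from the Zymo-Seq RiboFree kit in the pac1-ts experiment, and from TruSeq after RiboZero depletion in both others. All 14 columns were matched to samples by their titles. A supplementary sample list gives the pac1-ts libraries as replicates of 1 strain, whereas the labels give 2 strains, and the labels were followed. A supplementary legend of the study gives the anchor-away RNA-seq coverage as a mean of 2 biological replicates. It does not say how the cultures were kept apart, so p-values measure only the spread between these libraries.

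The fits used edgeR 4.0.16 (R 4.3.3; quasi-likelihood test, TMM factors, Benjamini-Hochberg adjustment). After filterByExpr with a minimum of 10 counts, 6328 genes entered the anchor-away fit (strain only) and 6728 the pac1-ts fit (strain, temperature and their interaction). SE is the log2 fold change over the root of F. FPKM used the gene lengths deposited by the authors. Exonuclease libraries were compared over 5680 genes as log2 ratios of scaled counts plus 0.5, with 95% Clopper-Pearson intervals. At these depths 3 counts stand for 0.0563 to 0.439 CPM.

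The clones pair the temperatures, as the same strain was sampled at both (the correlation of their deviations from the group means was 0.659 over 6274 genes). The members and lists were chosen with earlier results of these data known. Apart from the 9 members, the genes named are, in each comparison, up to 3 called list genes with the largest rise and 3 with the largest fall and no overlap of groups, the 5 genes most like the members, pac1, dis3 and dhp1, and genes that overlap a member. On simulated counts, edgeR recovered 200 of 200 changed genes in the anchor-away design and 197 for pac1-ts against WT at 30°C. It recovered 199 for 37°C against 30°C in pac1-ts and 188 for the interaction. The false calls were 0, 1, 0 and 3 in that order. All planted changes lay well past the log2 threshold of 1, so recovery near it was not tested. The simulated libraries were drawn independently, without the deviations that a clone shares between temperatures, so these counts do not cover that. RefSeq locus tags matched 6844 of the 7049 genes, and coordinates of genes are those of the authors' table. DESeq2 1.42.0, other factors and filters, the replicate block and each replicate left out were run as alternatives, and the longer motif window and library totals without ribosomal RNA genes were added after seeing the data. ChIP-seq and other measurements of the study were not analysed here.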

Additional observations from a re-analysis of the deposited data

Results flagged for a closer look

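Of the 9 genes, which were chosen with results of these data known, obr1 alone was called for the difference of the heat effects. gpx1, at 0.95, lay just below the log2 threshold. For obr1, the difference of the log2 heat effects, pac1-ts minus WT, was -1.28 (SE 0.15). It came from -2.35 and -2.22 in clones #1 and #2 and -1.01 in WT, where it rests on 1 library at each temperature. The antisense lncRNA SPNCRNA.793, which covers obr1, was higher at 37°C in both strains (1.05 in pac1-ts and 1.20 in WT on the log2 scale). Its part in the result was not tested.

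For pyp2, both clones were higher at 37°C (0.33 and 0.31 on the log2 scale) and WT was lower (-0.24), which gave a difference of 0.56 (SE 0.15). This difference was not called, and the single WT library at each temperature does not allow the directions to be checked in replicates. With library totals the WT value was above 0.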

How the results depend on the processing

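The counts of the 9 genes called kept within 1.5 times of their value in all but the following cases. Without the log2 threshold, 3 were called higher and 1 lower for Pac1-AA against CTL (4.55% and 7.46% of all genes), 6 higher for pac1-ts against WT at 37°C (5.80%), and 1 higher for the difference of the heat effects (0.907%). For 37°C against 30°C in WT, the 1 gene called lower became 0 with DESeq2, RLE size factors, library totals, a mean count of at least 50, and library totals without ribosomal RNA genes (added after seeing the data). It ranged from 0 to 1 when each replicate was left out. The gene is obr1, whose log2 value stood at the threshold. The count called higher for the difference of the heat effects ranged from 0 to 1 with each replicate left out, the gene being gpx1. In the exonuclease libraries, library totals gave 3 genes above a log2 ratio of 1 in the library labelled Pnmt81-dhp1 and 1 in the double, since that scaling moves every ratio of a library by the same amount. No called value of the 9 genes changed sign.

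The anchor-away replicate numbers only name samples (the correlation of same-numbered deviations was 0.0786 over 5848 genes). With the replicate block, 1 of the 9 genes was still called higher there, and the calls over all genes were 61 higher and 16 lower against 39 and 14. Over all genes the calls also moved beyond 1.5 times with library totals, to 69 higher and 9 lower for Pac1-AA, 748 and 147 for heat in pac1-ts (423 and 323), 863 and 91 for heat in WT (395 and 302), and 27 higher for the difference of the heat effects (48). Leaving out ribosomal RNA genes as well gave 811 and 135, 860 and 91, and 27, and 35 lower for pac1-ts at 30°C (53). The replicate block gave 186 higher at 30°C (109), and 79 higher and 41 lower for the difference (48 and 19), and with each replicate left out these ranged from 115 to 187, 60 to 79 and 32 to 43. A mean count of at least 50 gave 21 higher for the difference. The cause was not tested. WT has 1 library a temperature, so the heat effect in WT and each comparison with WT rest on a single library. The lowest count of the 9 genes in any library was 56, for SPAC4H3.08 in WT in thiamine.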
